A study of Mus musculus with 54 samples.

Results

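Dissected crypts and dissected villi of the mouse small intestine were compared for 160 microRNAs. The microRNAs are the entries of a small RNA table that carry a plain microRNA name, with no suffix, and that reached a mean of at least 50 RPMMM over 4 crypt and 4 villi libraries. RPMMM is a read count scaled to the microRNA reads of the library. The table lists 2602 entries in all, 635 of them plain-named. At the same mean there were 239 entries, the 160 described here and 79 with a suffix. The crypt and villi libraries are 8 of the 54 samples in a series of 16 groups built around miR-375, a microRNA of hormone-secreting cells. Every crypt and villi sample came from the small intestine of C57BL/6J mice and carried no stated mutation, transgene or treatment, and its library was made with the TriLink CleanTag small RNA kit. No source used here gives age, sex, diet or the number of animals behind a sample. The labels do not say that the 4 samples of a group came from separate mice, so p-values measure the spread between these samples, which may be technical. The members just above the minimum were mir-20b-5p at a mean of 50.4 RPMMM, mir-541-5p at 55.2 and mir-128-2-3p at 55.2, and those just below it were mir-25-5p at 49.7, mir-101b-3p at 48.6 and mir-1843-5p at 43.4.

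Crypts are the pockets at the base of the intestinal lining, where stem cells and their dividing daughters lie beside Paneth cells. Villi are the projections that carry the differentiated absorptive and secretory cells made in the crypts. A microRNA is a short RNA cut from a hairpin, with a 5p product from one arm and a 3p product from the other. It lowers the output of messenger RNAs that pair with its seed, bases 2 to 8 from the 5′ end, so microRNAs that share a seed share most of their predicted targets. miR-192, miR-194 and miR-215 are known as microRNAs of differentiated enterocytes, and the miR-17-92 cluster is known for its activity in dividing cells.

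RefSeq (assembly GRCm38.p6) gave a mature sequence for 130 of the 160 members, which came to 115 distinct sequences and 79 distinct seeds. Of these members 29 share a mature sequence with another member, so 14 sequences are counted more than once. The sequences below belong to the families the comparison turns on. They run 5′ to 3′ with the seed in capitals. miR-192 and miR-215 share one seed, and miR-194 has another. Both arms of the mir-194-1 and mir-194-2 hairpins are shown because the hairpins share the 5p product and differ in the 3p product:
mir-192-5p: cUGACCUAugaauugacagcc
mir-215-5p: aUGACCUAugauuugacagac
mir-194-1-5p and mir-194-2-5p: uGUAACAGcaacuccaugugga
mir-194-1-3p: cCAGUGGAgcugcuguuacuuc
mir-194-2-3p: cCAGUGGGgcugcuguuaucug
Counted from the 5′ end, with the base of mir-192-5p first, mir-215-5p differs from it at C1A, A12U and C20A, none of them in the seed.

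The next sequences belong to members called higher in crypts, except mir-25-3p, which was not called and is shown for its seed. The miR-25/92 products share one seed and the miR-181 products another:
mir-92a-1-3p and mir-92a-2-3p: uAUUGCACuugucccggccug
mir-92b-3p: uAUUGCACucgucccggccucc
mir-25-3p: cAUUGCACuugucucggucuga
mir-181a-1-5p and mir-181a-2-5p: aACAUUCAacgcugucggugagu
mir-181b-1-5p and mir-181b-2-5p: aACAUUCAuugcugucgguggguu
mir-181c-5p: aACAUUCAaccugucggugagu
mir-181d-5p: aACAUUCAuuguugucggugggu
mir-222-3p: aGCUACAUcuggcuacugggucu
mir-342-5p: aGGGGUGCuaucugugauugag
mir-155-5p: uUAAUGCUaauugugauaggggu

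The 5p products of the let-7 family are shown because they have one seed and nearly one sequence, yet not all were higher in crypts. As deposited none was called lower, and lower calls came only after rescaling:
let-7a-1-5p: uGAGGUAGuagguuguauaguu
let-7b-5p: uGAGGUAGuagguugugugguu
let-7c-1-5p and let-7c-2-5p: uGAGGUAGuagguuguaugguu
let-7d-5p: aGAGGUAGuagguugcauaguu
let-7e-5p: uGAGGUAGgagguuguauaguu
let-7f-1-5p and let-7f-2-5p: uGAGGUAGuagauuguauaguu
let-7g-5p: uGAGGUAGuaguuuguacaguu
let-7i-5p: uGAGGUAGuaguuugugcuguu
mir-98-5p: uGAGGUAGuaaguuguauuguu
With the base of let-7a-1-5p first, let-7b-5p differs at A17G and A19G, let-7c-1-5p at A19G, let-7e-5p at U9G and let-7f-1-5p at G12A. The other differences are U1A and U16C in let-7d-5p, G12U and U18C in let-7g-5p, G11A and A19U in mir-98-5p, and G12U, A17G, U18C and A19U in let-7i-5p.

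The 160 members held 96.4% to 97.2% of the RPMMM of each library, and none was listed at 0 in any of the 8. Between 5 and 7 of them together made up the larger part of a library. The depth in reads is unknown. The lowest value above 0 was 2.8 to 3.57 RPMMM in a crypt library and 1.42 to 2.06 in a villi library. The median coefficient of variation of a member was 22.6% among crypts and 24.8% among villi. Correlations between libraries were taken over the log values of all 239 entries at the minimum mean, suffixed ones included. They averaged 0.923 to 0.973 with other libraries of the same group and 0.883 to 0.92 with libraries of the other group. Column names place all 8 libraries in one sequencing lane. The table holds no messenger RNA, so the crypt and villus labels could not be checked against messenger RNA markers. Epithelial miR-200c-3p stood at 20589 to 30970 RPMMM in every library, and endothelial miR-126-5p at 3.91 to 36.4. The smooth muscle and fibroblast microRNA mir-143-3p stood at 5700 to 51364. These levels overlap between the groups and do not check the labels.

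Values are log2 differences of log2(RPMMM + 1), crypt minus villi, tested with limma, and a microRNA is called where its p, adjusted by Benjamini-Hochberg over the 239 entries, is under 0.05. limma called 69 of the 160 members, 43.1%, against 46.9% of all entries tested. Of these 57 were higher in crypts (36.4% of all entries were) and 12 lower (10.5% of all entries). An unadjusted p under 0.05 was reached by 80 members. The crypt and villi libraries did not overlap for 59 members (40.6% of all entries). Means lay at least 2-fold apart for 38 of the called members that were higher and 10 of those that were lower. Leaving out each library in turn kept 52 of the 69 calls in all 8 fits, 42 of them higher and 10 lower, and changed the sign of none.

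The balance of directions depends on the scaling. RPMMM is relative to the library total, so a larger share for some entries leaves less for the rest. The plain-named miR-192, miR-194 and miR-215 products took 29.8% to 45.8% of a villi library, and their part in the balance was not tested. Scaling by median-of-ratios moved the median difference over all entries from 0.39 to -0.01. With it limma called 69 members, again 43.1% (43.5% of all entries), but 33 were higher and 36 lower (20.1% and 23.4% of all entries). The scaled libraries did not overlap for 62 members (41% of all entries). All 33 were among the 57 members called higher as deposited, and the 36 included all 12 called lower. With totals that leave out miR-192, miR-194 and miR-215, suffixed entries included, 23 were higher and 48 lower, and the median over all entries was -0.18. This alternative was chosen after seeing the data, and the entries left out were 31% to 47.3% of a villi library. Across these settings and quantile normalization, 19 members were called higher and 10 lower every time. No share over all entries was taken for these last counts, so they describe the members only. In bulk samples, fewer cells of a type and less RNA per cell cannot be told apart.

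**Figure D1:**
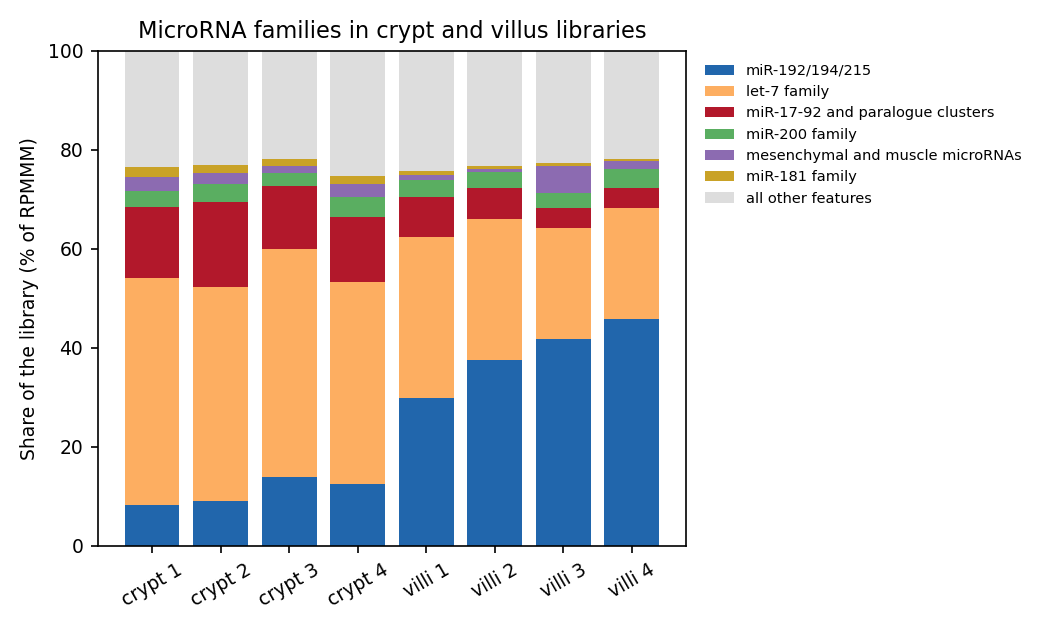
Share of each of the 8 libraries, in % of RPMMM, held by 6 microRNA lists, with all other features in grey. The band of miR-192, miR-194 and miR-215 is 8.21% to 13.8% of a crypt library and 29.8% to 45.8% of a villi library, and the let-7 band is 40.9% to 46.1% and 22.4% to 32.6%.

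**Figure D2:**
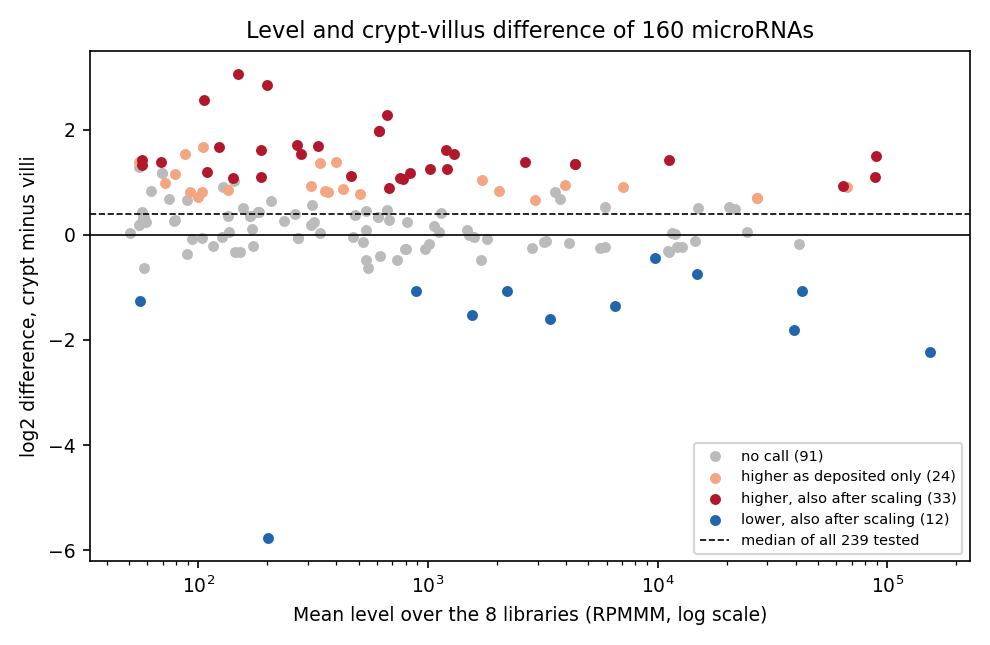
Mean level over the 8 libraries (RPMMM, log axis) and log2 difference, crypt minus villi, of each of the 160 members. Red points (33) and blue points (12) were called under both scalings, and orange points (24) were called higher as deposited only. Grey points had no call as deposited, and 24 of them were called lower after median-of-ratios scaling. The dashed line is the median of all 239 entries, 0.39.

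The members that were lower in crypts were led by the enterocyte microRNAs. Of 7 members of the list of miR-192, miR-194 and miR-215, 6 were lower in crypts under all 4 scalings and none was higher, with a list median of -1.52 beside 0.42 over all members. mir-215-5p stood at 36470, 40723, 78082 and 65649 RPMMM in the crypt libraries and at 173365, 234487, 285336 and 309771 in the villi libraries. The groups lay far apart, and mir-215-5p alone was 17.3% to 31.0% of each villi library. Its mean was 4.54-fold higher in villi, and the log2 difference was -2.22 (standard error, SE, 0.28, limma adjusted p 0.000512).

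mir-194-1-5p came to 17923, 12912, 24121 and 16262 RPMMM in crypts and 59382, 66870, 49847 and 67819 in villi, 3.43-fold higher in villi (log2 difference -1.80, SE 0.21, limma adjusted p 0.000434). mir-192-5p came to 20053, 28963, 26352 and 35406 in crypts and 47700, 52356, 68718 and 60444 in villi, 2.07-fold higher in villi (-1.06, SE 0.20, limma adjusted p 0.00277). Neither microRNA had a crypt library as high as its lowest villi library. The scarcer arms followed for mir-215-3p (log2 difference -1.59) and mir-194-1-3p (-1.52), although mir-194-1-3p overlapped in crypt 3 and villi 3. The Mir194-1 and Mir215 hairpins lie 374 bp from end to end on the plus strand of chromosome 1 (GRCm38, 185313319 to 185313692), opposite an intron of Iars2, and all 4 of their products were lower in crypts. Mir194-2 and Mir192 lie within 290 bp on the plus strand of chromosome 19 (6264643 to 6264932), with no other annotated gene. There mir-194-2-5p was lower in crypts (-1.35), while mir-194-2-3p was the 1 list member with no call (0.41, limma adjusted p 0.084).

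Outside the list, 6 members were called lower in crypts. mir-802-5p, from a hairpin on the plus strand of chromosome 16 (93369720 to 93369816), was listed at 27.9, 40.1, 25.3 and 35.03 RPMMM in crypts and at 58.2, 75.7, 77.6 and 105 in villi. mir-22-3p, from an exon of Mir22hg on chromosome 11 (75463716 to 75463810), was listed at 1599, 1322, 1595 and 1170 in crypts and at 2819, 3342, 2599 and 3160 in villi. mir-203-3p, from chromosome 12 (112130880 to 112130955) and known from differentiating skin, was listed at 508, 425, 560 and 824 in crypts and at 975, 972, 1340 and 1509 in villi. The groups did not overlap for any of these, and the log2 differences were -1.27 (limma adjusted p 0.00371), -1.07 (0.000962) and -1.06 (0.00705). All stayed called under every scaling.

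mir-21-5p, from an exon of Vmp1 on chromosome 11, was 1.36-fold higher in villi with no overlap (-0.45, limma adjusted p 0.0498). mir-31-5p, named here after its values were seen, was 1.75-fold higher in villi, and its groups overlapped at villi 3 (-0.74, limma adjusted p 0.0489). Both calls were lost in 6 of the 8 fits without a library. The entry mir-5115 had the greatest decrease, at 6.12, 2.94, 15.6 and 3.31 RPMMM in crypts and 325, 185, 559 and 520 in villi (-5.77, SE 0.51, limma adjusted p 9.92e-05). Its crypt values lay near the lowest value above 0 of those libraries, and no gene of that name was matched in the annotation.

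**Figure D3:**
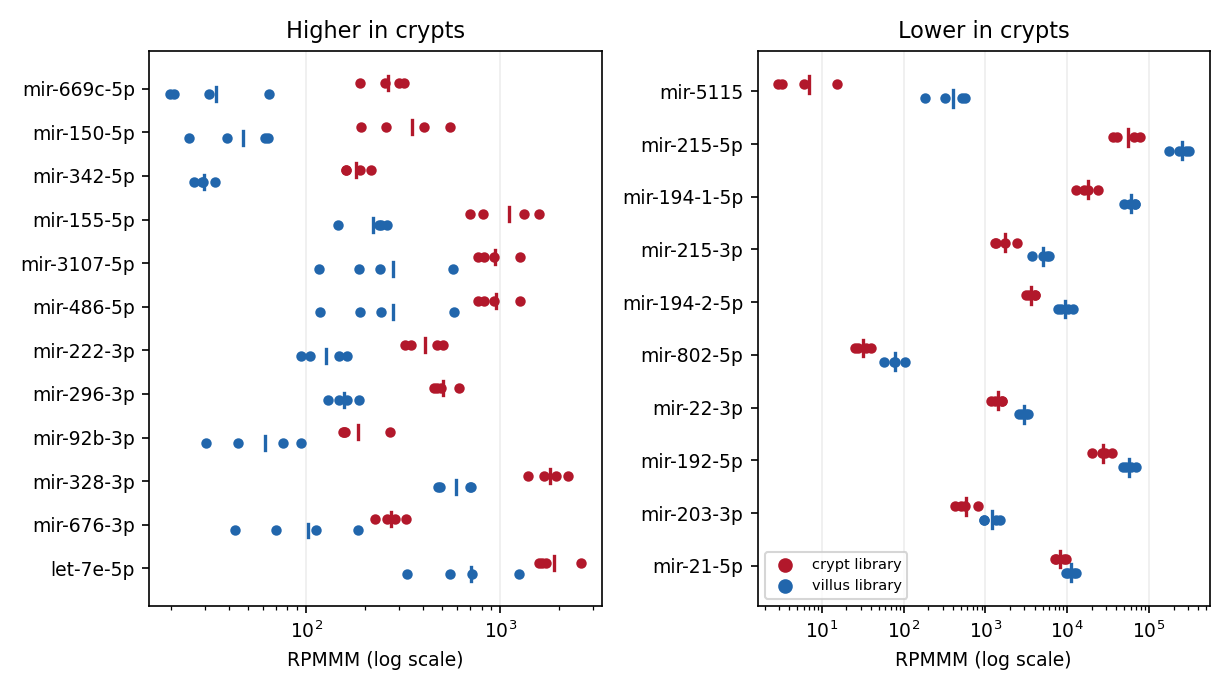
RPMMM (log axes) of the 12 members with the greatest increases and the 10 with decreases among those called under both scalings with no overlap as deposited. Each point is a library and each vertical bar a group mean. No red crypt point crosses a blue villus point of the same microRNA.

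The let-7 family, microRNAs that accumulate as cells mature, made up more of the crypt libraries than of the villi libraries, at 40.9% to 46.1% against 22.4% to 32.6%. Of its 13 members 7 were higher in crypts and none lower, with a median of 0.70. Median-of-ratios scaling left 4 higher and made 4 lower (median 0.30), so the family was described member by member. let-7b-5p was listed at 119955, 112717, 144166 and 101001 RPMMM in crypts and at 70328, 63150, 46068 and 46684 in villi, without overlap. It was 2.11-fold higher in crypts (log2 difference 1.09, SE 0.19, limma adjusted p 0.0016), and 0.69 after scaling (limma adjusted p 0.0286). let-7c-1-5p and let-7c-2-5p, which share a mature sequence, differed by 0.93 and 0.91 as deposited. Scaling left them at 0.53 and 0.51, the first called (limma adjusted p 0.0494) and the second not (0.0577).

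let-7e-5p had the family's greatest increase. It was listed at 2606, 1585, 1633 and 1718 RPMMM in crypts and at 716, 329, 1243 and 552 in villi (1.54, SE 0.37, limma adjusted p 0.00797). Its hairpin on chromosome 17 lies beside mir-125a in an intron of Spaca6, the pair spanning 17830352 to 17830879, and mir-125a-5p differed by 1.38 with overlapping groups (limma adjusted p 0.0329, lost in 6 of the 8 fits without a library). let-7d-3p, the passenger arm of let-7d, was listed at 1224, 1223, 1203 and 1005 in crypts and at 575, 519, 476 and 487 in villi. It had the smallest SE of the family (1.18, SE 0.15, limma adjusted p 0.000534) and was the only let-7 member called under all 4 scalings.

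The remaining let-7 members were not called higher under both scalings. let-7a-1-5p and let-7a-2-5p were 1.59-fold higher in crypts as deposited (0.70 each, limma adjusted p 0.0148 each) and were not called after scaling. let-7d-5p (0.51) and let-7i-5p (0.49) were not called under either. let-7f-1-5p (-0.23), let-7f-2-5p (-0.24), let-7g-5p (-0.12) and mir-98-5p (-0.47) were not called as deposited, and median-of-ratios scaling put them lower in crypts. The scaled values were -0.63, -0.64, -0.52 and -0.87 (limma adjusted p 0.0163, 0.0153, 0.0169 and 0.0153). let-7f-2 and mir-98 lie 976 bp from end to end in an intron of Huwe1 on chromosome X. Across 115 distinct mature sequences, which cover 81.2% of the members, the log2 difference had a Spearman correlation of 0.46 and a Pearson correlation of 0.41 with GC content. These points share the same 8 libraries, so this is a description. The median GC content was 51.1% for 40 sequences called higher, 44.2% for 10 called lower and 44% for 65 with no call. Within let-7, GC content was 45.5% for let-7b-5p and 31.8% for let-7f-1-5p and mir-98-5p. However, it was 40.9% for let-7e-5p and equally for the uncalled let-7d-5p and let-7i-5p, and 36.4% for both let-7a-1-5p and let-7g-5p. Its part in the differences was not tested.

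The miR-17-92 cluster and its paralogues held 12.7% to 17.3% of a crypt library and 4.05% to 7.91% of a villi library. Of 10 members, 5 were higher in crypts and none lower (median 0.66, and 0.26 after scaling, where 3 were higher). mir-92a-1-3p was listed at 126399, 158360, 116244 and 119145 RPMMM in crypts and at 68339, 53737, 33600 and 35043 in villi. It was the most abundant member in crypts 1, 2 and 4. Its mean was 2.73-fold higher in crypts (log2 difference 1.501, SE 0.24, limma adjusted p 0.0011), and it stayed called under all 4 scalings. Its hairpin is in an exon of Mir17hg on chromosome 14 (115044427 to 115044506). mir-92a-2-3p, from the paralogous cluster on chromosome X, has the same mature sequence and was listed at 794.7 to 5010 RPMMM over the 8 libraries, with overlap (1.38, limma adjusted p 0.0179). How reads of a shared sequence were assigned to the names is not known, and so neither is the share of each hairpin.

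Cluster members differed in size of change. Beside mir-92a-1-3p, its cluster held mir-17-3p, called at 0.97 as deposited and not after scaling, and mir-17-5p and mir-20a-5p, not called at 0.56 and 0.52. In the mir-25, mir-93 and mir-106b hairpins of Mcm7, a replication licensing gene on chromosome 5 (138165321 to 138165818), mir-106b-3p was higher under both scalings (1.07, then 0.67). There mir-93-5p was higher as deposited only (0.65, limma adjusted p 0.0148), and mir-25-3p (0.67, limma adjusted p 0.0676) and mir-106b-5p (0.32) were not called. mir-92b-3p is encoded alone on chromosome 3 (89227116 to 89227198) and shares the seed of mir-92a-1-3p. It was listed at 269.8, 156, 159 and 155 in crypts and at 76.3, 30.4, 94.2 and 44.3 in villi (1.67, SE 0.37, limma adjusted p 0.00573). Of the 4 members with the miR-25/92 seed, which are 3 distinct sequences, 3 were higher in crypts under both scalings. Among these mir-92a-1-3p and mir-92a-2-3p share a mature sequence and are not separate support. Of 5 members with the miR-17 seed 1 was higher as deposited and none after scaling.

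All 6 members of the miR-181 family, known from lymphocyte and stem cell biology, were higher in crypts as deposited and 5 after scaling. mir-181a-1-5p was listed at 7234, 6365, 5478 and 5852 RPMMM in crypts and at 2903, 2720, 2524 and 1776 in villi (log2 difference 1.34, SE 0.19, limma adjusted p 0.000633). The lowest crypt library was above the highest villi library for every member of the family. mir-181b-1-5p and mir-181b-2-5p differed by 1.25 and 1.24, and mir-181d-5p by 1.05. mir-181c-5p had the least difference, 0.82 as deposited and 0.42 with no call after scaling. The pairs lie on chromosome 1 (137966455 to 137966718) and on chromosome 2 opposite an intron of Nr6a1 (38852735 to 38853918), and mir-181c and mir-181d lie in an intron of Nanos3 on chromosome 8.

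Further increases came from small groups encoded together. mir-222-3p, known for lowering the cell cycle inhibitor p27, was listed at 471, 505, 323 and 345 RPMMM in crypts and at 162, 104, 147 and 93.8 in villi (1.70, SE 0.25, limma adjusted p 0.000826). mir-221-3p, with the same seed and 678 bp away end to end on chromosome X (19146294 to 19146971), differed by 0.88 (limma adjusted p 0.00884). mir-296-3p was listed at 455, 612, 493 and 470.0 in crypts and at 186, 162, 129 and 147 in villi (1.70, SE 0.19, limma adjusted p 0.000434). mir-298-5p, from the same 539 bp on chromosome 2 (174267047 to 174267585), differed by 1.11 (limma adjusted p 0.00337). The groups did not overlap for any of these 4 members.

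mir-328-3p, from a hairpin opposite an exon of Elmo3 on chromosome 8 (105308364 to 105308460), was listed at 2224, 1684, 1938 and 1385 RPMMM in crypts and at 697, 487, 709 and 476 in villi (1.61, SE 0.22, limma adjusted p 0.000534). mir-676-3p, from an intron of Eda on chromosome X (100381097 to 100381185), was listed at 326, 286, 261 and 227.3 in crypts and at 112, 42.9, 185 and 69.6 in villi (1.605, SE 0.40, limma adjusted p 0.00932). Both were at least 2.68-fold higher by their means and did not overlap, and the second was not called with totals that leave out miR-192, miR-194 and miR-215. mir-34a-5p, a microRNA induced by p53, was listed at 147, 98.3, 86.4 and 67.6 in crypts and at 53.4, 33.7, 41.2 and 22.5 in villi (1.39, limma adjusted p 0.0079).

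mir-669c-5p had the greatest increase of the 160 members. It was listed at 320.3, 299, 253 and 188 RPMMM in crypts and at 31.7, 19.8, 64.1 and 20.9 in villi, 7.77-fold apart by the means (3.06, SE 0.37, limma adjusted p 0.000512). Its hairpin lies in an intron of Sfmbt2, which carries a rodent-specific array of related microRNAs. Of 33 plain-named entries of that array it was the only member, and 14 others were at 0 in all 8 libraries. mir-669l-5p, the next in level, ranged from 9.4 to 30.8 in crypts and from 0 to 6.27 in villi.

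Of 6 leukocyte-list members 5 were higher in crypts and none lower (median 1.82). This list holds microRNAs abundant in white blood cells. After scaling 3 of the 6 were higher. mir-150-5p, a microRNA of mature lymphocytes, was listed at 552, 256, 191.6 and 407 RPMMM in crypts and at 63.1, 61.1, 24.9 and 38.8 in villi (2.85, SE 0.40, limma adjusted p 0.000633). mir-342-5p, from an intron of Evl, was listed at 214.7, 160.3, 160.4 and 190.1 in crypts and at 34.0, 26.4, 29.1 and 29.4 in villi (2.57, SE 0.21, limma adjusted p 7.89e-05). mir-155-5p, from an exon of Mir155hg on chromosome 16 (84714140 to 84714204) and induced in activated lymphocytes and macrophages, was listed at 1587, 816, 701 and 1322 in crypts and at 242, 261, 237 and 146 in villi (2.27, SE 0.30, limma adjusted p 0.000534). For each of these every crypt library was above every villi library.

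mir-146a-5p (1.05, limma adjusted p 0.0164) and mir-142-5p (1.38, limma adjusted p 0.0184) were higher in crypts without overlap as deposited and were not called after scaling. mir-146b-5p, with the seed of mir-146a-5p, ranged from 106 to 141 in crypts and from 102 to 169 in villi (-0.04, limma adjusted p 0.895). Other leukocyte products were scarce as plain-named entries. mir-223-3p, a myeloid microRNA, was at 0 in 3 of 4 crypt and 3 of 4 villi libraries, and mir-142-3p was at 0 in all crypt libraries. Suffixed entries of these microRNAs are not counted here. The summed level of the list was 2518 to 5579 RPMMM in crypts and 1202 to 1795 in villi. The larger part of the sum in every library was mir-146a-5p, at 1281 to 3196 in crypts and 849 to 1265 in villi. mir-146a-5p was also listed in the sorted crypt cells described below, and which cells carried it there is not known. Whether the sum measures leukocyte content, and the part of leukocytes in these increases or in those of other members, were not tested.

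mir-486-5p, an erythroid and muscle microRNA in an intron of Ank1, was listed at 1264, 923, 767 and 826 RPMMM in crypts and at 242, 117, 577 and 188 in villi (1.97, SE 0.43, limma adjusted p 0.0048). mir-3107-5p lies on the opposite strand of the same place on chromosome 8 (23142573 to 23142662, within 23142555 to 23142682 of Mir486) and its values were within a few RPMMM of it in every library. They are taken as one measurement. The plain-named entries of the defining red cell products mir-451, mir-144-3p and mir-144-5p were at 0 in all 8 libraries, and suffixed entries are not counted here.

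The summed level of the mesenchymal and muscle list, most of it mir-143-3p, was highest in 1 villi library. The 10 list members summed, with the scarce entries, to 14236 to 27566 RPMMM in crypts and to 10113, 6016, 54141 and 14855 in villi. Single members differed in this. mir-1a-1-3p and mir-199a-1-3p were highest in villi 3, at 560 and 401, but mir-133a-1-3p and mir-145-5p in crypt 1, at 223 and 196. mir-143-3p, a smooth muscle and fibroblast microRNA, was listed at 25329, 20737, 13400.0 and 23874 in crypts and at 9346, 5700, 51364 and 14023 in villi. Villi 3 stood above all crypts, and limma made no call (0.53, adjusted p 0.496). Without villi 3 the difference was 1.16 and was called (limma adjusted p 0.0178). The 1 list member called was mir-143-5p, named after its values were seen, with overlap (1.54, limma adjusted p 0.0303). It lost the call after scaling and in 5 of the 8 fits without a library. Without villi 3, limma called 72 members in all.

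**Figure D4:**
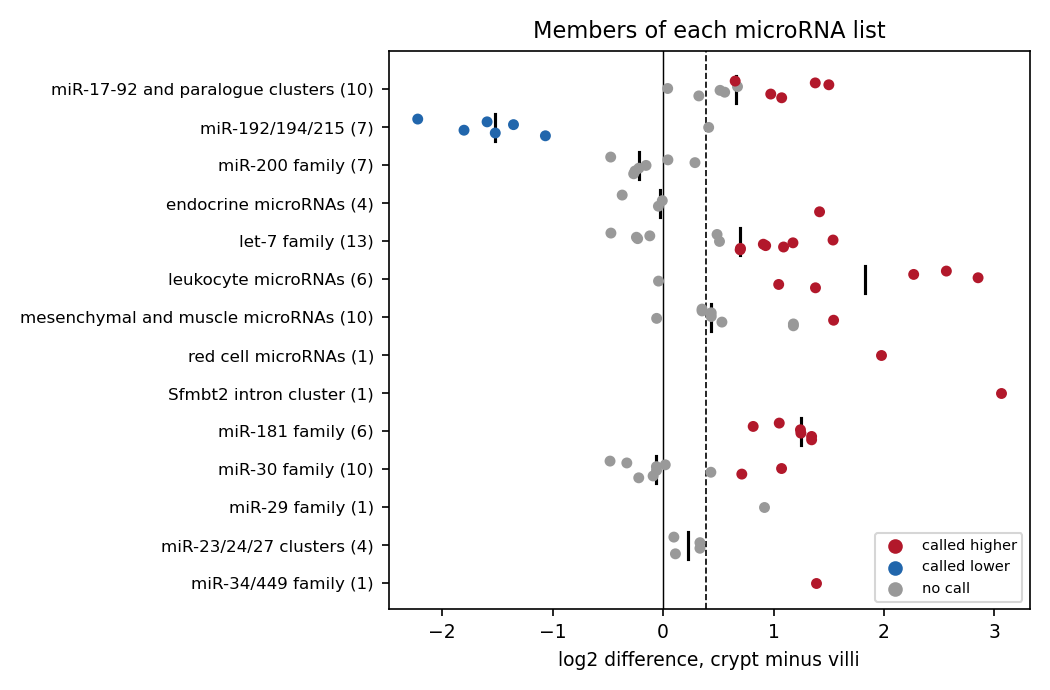
Log2 difference, crypt minus villi, of each member of 14 lists, with the number of members in brackets. The short black bar is the list median and the dashed line the median of all 239 entries, 0.39. All 6 miR-181 members are called higher and 6 of 7 members of the miR-192, miR-194 and miR-215 list lower, while let-7 spans -0.47 to 1.54.

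Epithelial microRNAs of the miR-200 family were not called. The 7 members had a median difference of -0.22, and their summed level was 27236 to 39919 RPMMM in crypts and 29770 to 38848 in villi. mir-200c-3p was listed at 22993, 25127, 20589 and 30970 in crypts and at 25108, 21402, 20774 and 29243 in villi, interleaved between the groups (0.04, limma adjusted p 0.862). After median-of-ratios scaling 5 of the 7 were lower in crypts (median -0.62). Of 10 miR-30 members 2 were higher and none lower as deposited (median -0.06), mir-30c-2-3p (1.07, limma adjusted p 0.00761) and mir-30b-3p (0.71, limma adjusted p 0.024). After scaling 1 was higher and 2 lower. mir-30d-5p, the most abundant of that list, ranged from 10980 to 13397 in crypts and from 8468 to 15020 in villi (0.02, limma adjusted p 0.943). None of the 4 members of the miR-23/24/27 clusters was called under either scaling, mir-27b-3p lying at 1257 to 1762 in crypts and 1367 to 1479 in villi. mir-29a-3p, the 1 miR-29 member, came to 80.7 to 229 in crypts and 61.6 to 97.1 in villi (0.91, limma adjusted p 0.0522). mir-378-3p, from an intron of Ppargc1b, was among the 10 most abundant members, with 33278 to 43808 in crypts and 36199 to 49527 in villi (-0.17, limma adjusted p 0.444). It was lower in crypts only after scaling (-0.57, limma adjusted p 0.0418).

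Of 4 members of the endocrine list, mir-375-3p was the 1 called. It was listed at 16350, 21282, 11339 and 16566 RPMMM in crypts and at 7531, 4746, 5814 and 6188 in villi, 2.70-fold apart by the means and without overlap. mir-375-3p was called under all 4 scalings, at 1.42, 1.02, 1.43 and 0.85 as deposited, by median-of-ratios, by quantiles and with totals that leave out miR-192, miR-194 and miR-215. The other endocrine members did not follow it. mir-7a-1-5p, a microRNA of islet and gut endocrine cells, was listed at 1605, 1313, 1254 and 2064 in crypts and at 1435, 1212, 2172 and 1620.0 in villi (-0.04), and mir-7b-5p differed by -0.37 with no call (limma adjusted p 0.395).

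A ratio of the 2 arms of a hairpin within a library does not move with scaling. Both arms were members for 20 hairpins, and limma on the log2 ratio called 5 of them, 25%. For mir-194-2 the 5p product exceeded the 3p product 3.24, 2.48, 2.75 and 2.84 times in crypts and 6.66, 10.5, 9.4 and 12.8 times in villi. These do not overlap (log2 ratio difference -1.77, SE 0.22, limma adjusted p 8.62e-05). Its 5p sequence is also that of mir-194-1, so reads of the other hairpin can enter the ratio. For mir-194-1 the crypt ratio was 23.8 ± 7.08 and the villi ratio 29.0 ± 8.81 (SD, n = 4 each; limma adjusted p 0.445).

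For mir-30c-2 the crypt ratio of 5p to 3p was 1.40 ± 0.165 and the villi ratio 3.22 ± 1.06 (SD, n = 4 each; -1.13, limma adjusted p 0.0188), and its 5p sequence is shared with mir-30c-1. For mir-28 it was 0.38 ± 0.028 and 0.682 ± 0.199 (limma adjusted p 0.0268), and for let-7d 15.0 ± 1.46 and 24.2 ± 5.17 (limma adjusted p 0.042). For mir-151 it was 0.0794 ± 0.0314 and 0.148 ± 0.0454 with overlap (limma adjusted p 0.042). In all 5 the 5p share was lower in crypts. Only mir-194-2 was called when crypt 2, crypt 3, villi 2 or villi 4 was left out, 2 hairpins were called without crypt 1, and 7 without crypt 4 or villi 1. Each of the other 4 calls was thus lost without at least 1 library.

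The table also holds libraries of sorted small intestinal cells from C57BL/6J mice. Sox9-EGFP is a fluorescent reporter of the gene Sox9, and its Low and Negative fractions are sorted crypt cells, of chow-fed mice by their source labels (n = 4 each). The column names of replicate 3 of both fractions carry a high fat diet instead, and counts are given with and without that pair. Lgr5-High (n = 2, labelled Lgr4 in the source field) and Cd24-Low (n = 4) are cells sorted on Lgr5 and on the surface protein Cd24. None of these samples is shared with the crypt and villi groups. The Low libraries carry lane 1 in their names and the Negative ones lanes 4 and 5, so lane and fraction cannot be told apart, and no test was made. Of the 33 members higher in crypts under both scalings, 32 had a higher mean log2 level in Low than in Negative cells (median difference 2.66), as did 128 of all 160 members (median 1.21). Without replicate 3 of both fractions, left out after seeing the data, these counts were 31 and 129. Of the 12 members lower in crypts, 9 were lower in Low than in Negative cells (median -1.86), and 10 without replicate 3. From Cd24-Low to Lgr5-High cells the 33 members divided, 14 higher and 19 lower in Lgr5-High (median -0.06). Of all 160 members 67 were higher there (median -0.29). Of the 12 members lower in crypts 11 were lower in Lgr5-High (median -1.40), and mir-192-5p was the exception. Across members the crypt minus villi and Low minus Negative differences had a Spearman correlation of 0.52 (0.58 without replicate 3), and with Lgr5-High minus Cd24-Low it was 0.20.

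mir-215-5p ranged from 40467 to 58199 RPMMM in Low cells and from 418426 to 502941 in Negative cells, the direction it had from crypt to villus. mir-192-5p, which shares its seed, ranged from 95095 to 168548 in Low and from 98529 to 117387 in Negative cells, and so did not separate them. In Lgr5-High cells mir-192-5p ranged from 298490 to 308211, above its Cd24-Low range of 145510 to 166100.5 and above every villi library. mir-92b-3p ranged from 189 to 369 in Low and was at 0 in all Negative libraries, and mir-375-3p ranged from 35358 to 144628 and from 414 to 631. mir-150-5p was at 0 in all Low and Negative libraries, and mir-142-5p reached 5.31 in Low and 0 in Negative cells. mir-342-5p ranged from 144 to 209 in Low cells, near its crypt level, and reached 4.32 in Negative cells. mir-155-5p ranged from 10.3 to 32.3 in Low cells, far below its crypt level of 701 to 1587, and reached 3.56 in Negative cells. Across the Cd24-Low libraries mir-155-5p ranged from 22.2 to 2896. mir-146a-5p, the most abundant of the leukocyte list, ranged from 409.5 to 1948 in Low and from 48.5 to 197 in Negative cells. mir-143-3p, at 50.01 to 75.2 in Low and 110 to 141 in Negative cells, was far below its dissected levels. mir-669c-5p reached 170 to 477 in Lgr5-High cells, near its crypt level, and 2.54 to 32.3 in Low cells. Sorted and dissected libraries come from different material, so levels set between them are a description. For mir-92a-1-3p they were 21445 to 70641 in Low, 2518 to 3096 in Lgr5-High and 1364 to 3331 in Cd24-Low cells. All of these lay below its crypt range of 116244 to 158360.

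**Figure D5:**
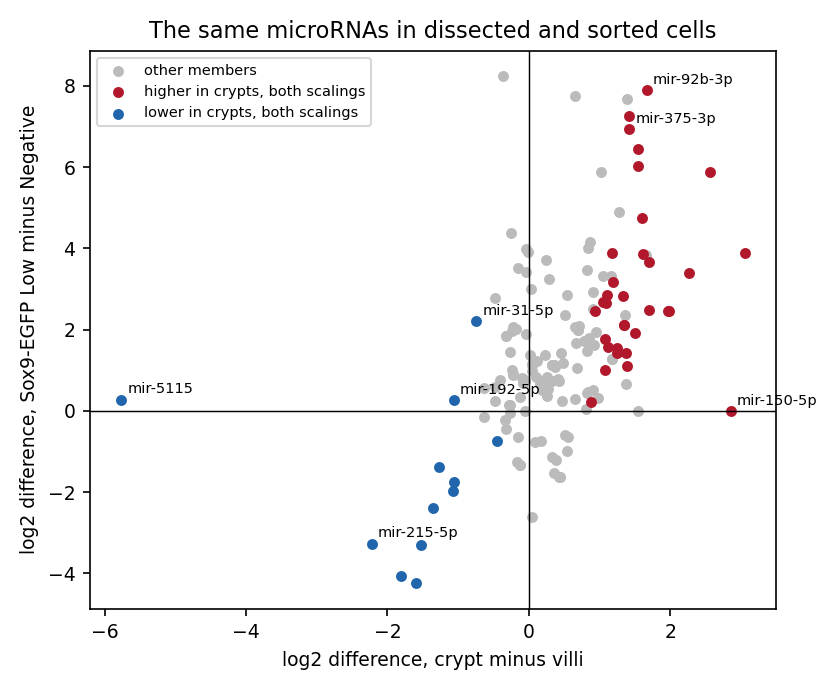
Log2 difference, crypt minus villi, against the difference of mean log2(RPMMM + 1) between Sox9-EGFP Low and Negative cells for the 160 members. Of the 33 red points (higher in crypts under both scalings) 32 lie above 0, and mir-150-5p is at 0; of the 12 blue points (lower in crypts) 9 lie below 0.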

How the data were processed

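Small RNA libraries of 4 crypt and 4 villi samples were compared, taken from a table of 30 libraries. The authors deposited RPMMM values, read counts scaled to the microRNA reads of a library (an RPM unit), and the 8 columns have the same sum but for rounding. The submitters' processing notes name the build mm10 with tools of no stated role. No source used here gives the aligner, the counting rule or the meaning of the suffixes. A further 4 columns matched no sample and were not used.

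The members and the microRNA lists were chosen with earlier results of these data known. Values were taken as log2(RPMMM + 1) and fitted in limma 3.58.1 under R 4.3.3, using lmFit and a trended eBayes, both directions tested, on the 8 libraries only, over the 239 entries with a mean of at least 50 RPMMM. Benjamini-Hochberg adjustment was over all 239, with calls at 0.05. The log2(RPMMM + 1) scale understates the change of scarce entries. Arm ratios were tested the same way over 20 hairpins. The procedure was tested on simulated data. Named microRNAs are the 12 greatest increases and up to 12 decreases among members called under both scalings and without overlap as deposited (10 decreases qualified), the 10 most abundant, up to 4 per list or the whole list, and the called arm ratios. Which lists were given whole, and for which lists only the most abundant member was named, was decided after the values were seen. Other called members of a list or of a hairpin cluster were also named after their values were seen. Members near 0 with no call can change sign between settings.

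Alternatives were pseudocounts of 0.5 and 10, no filter on low values, median-of-ratios scaling, quantile normalization, no eBayes trend, a spread over all small RNA groups, a replicate block, each library left out, and, chosen after seeing the data, library totals without miR-192, miR-194 and miR-215 and sorted fractions without replicate 3. Sequences came from RefSeq (GRCm38.p6) by symbol and hairpin positions from GENCODE M21 on GRCm38, the assembly mm10 denotes. Clusters are hairpins within 10 kb on one strand. Python 3.11.15, numpy 2.4.6, pandas 2.3.3 and matplotlib 3.10.9 were used.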

Additional observations from a re-analysis of the deposited data

Results flagged for a closer look

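Among the named microRNAs 114 groups of 4 libraries were checked for a library far from the other 3, by Dixon's test of the gap over the range at the 95% level. Chance alone marks about 1 in 20 groups, and 4 were marked. mir-92b-3p stood at 269.76 RPMMM in crypt 1, with the other crypts at 154.93 to 159.04. let-7e-5p stood at 2605.75 in crypt 1, also the highest crypt. let-7d-3p stood at 1005.17 in crypt 4, the lowest crypt, and let-7f-2-5p at 16526.61 in villi 3, the highest villi library. The called members among these kept their calls without the library in question.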

How the results depend on the processing

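Of the settings tried, scaling moved the directions most. Members called higher in crypts numbered 57 as deposited, 33 after median-of-ratios scaling, 34 after quantile normalization and 23 with totals that leave out miR-192, miR-194 and miR-215. Members called lower numbered 12, 36, 18 and 48. Leaving out 1 library at a time gave 53 to 73 called, 43 to 61 higher and 10 to 13 lower. Called arm ratios numbered 5, and 15 when both arms needed a mean of only 10, which tests more hairpins; without 1 library they numbered 1 to 7. Some members with no call as deposited changed sign, and the cause was not tested. After median-of-ratios scaling mir-200c-3p was at -0.36, mir-30d-5p at -0.38 and mir-27b-3p at -0.30. After quantile normalization mir-200c-3p was at -0.033 and mir-27b-3p at -0.13. With totals that leave out miR-192, miR-194 and miR-215, mir-194-2-3p was at -0.16, mir-200c-3p at -0.53, let-7i-5p at -0.081, let-7d-5p at -0.058, mir-143-3p at -0.037, mir-30d-5p at -0.55 and mir-27b-3p at -0.47; the last 2 were then called lower (limma adjusted p 0.0267 and 0.0357). Without 1 library, mir-200c-3p ranged from -0.066 to 0.141, let-7g-5p from -0.224 to 0.039, mir-146b-5p from -0.147 to 0.096 and mir-30d-5p from -0.134 to 0.142. The deviations of same-numbered crypt and villi samples correlated at 0.29, -0.11, -0.28 and 0.34. With 4 libraries a group these values cannot settle whether the numbers pair the samples. Not every library correlated best with its own number. A replicate block gave 66 members called, 56 higher and 10 lower, and 7 arm ratios. The count-based edgeR alternative was not run, because only 67.1% to 86.8% of low values were whole multiples of 1 step and reads could not be recovered. Unknown depth limits what can be said of scarce members, and the precision rests on 4 libraries a group.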
